A study of Mus musculus with 8 samples.

Results

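Genes that mark the macrophages at the borders of the brain and the myeloid cells of the blood were followed in the brains of mice given a GFP-tagged dipeptide repeat protein. Of the 43346 genes listed in the count table, 10 carried the chosen symbols: 6 border macrophage markers (Mrc1, Cd163, Lyve1, Pf4, F13a1 and Cbr2) and 4 markers of blood monocytes and neutrophils (Ccr2, Ly6c2, Plac8 and S100a9). The genes were chosen by name for the cells they mark. All 10 had enough counts to be tested.

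RNA from cortex and hippocampus of 8 mice aged 1.5 months was sequenced, 1 library per mouse. In the GFP group 4 mice, 2 females and 2 males, received EGFP alone. In the GFP-GR100 group 4 mice, again 2 females and 2 males, received EGFP fused in frame with 100 glycine-arginine repeats, built in a pAAV-EGFP fusion vector. Both groups therefore carried EGFP. The sources used here do not give the strain, the promoter, the route and age of delivery or the cells that took up the vector. Cells with the hexanucleotide expansion of C9orf72, which causes amyotrophic lateral sclerosis and frontotemporal dementia, translate it into such repeats. Replicates 1 and 2 of each group are the females and replicates 3 and 4 the males.

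Microglia fill the brain tissue itself, whereas border-associated macrophages sit in the meninges, around vessels and in the choroid plexus. Border macrophages carry scavenger and lectin receptors such as CD163 and the mannose receptor, which microglia at rest make little of. Classical monocytes leave the bone marrow through the chemokine receptor CCR2 and carry Ly6C on their surface. S100A8 and S100A9 are calcium-binding proteins that fill the cytoplasm of neutrophils and also occur in monocytes.

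Plac8 was the 1 marker of the 10 that rose with GFP-GR100, by 1.63 on the log2 scale. It encodes a small cysteine-rich protein that monocytes transcribe, as do some lymphocytes and dendritic cells. None of the 6 border macrophage markers passed the test in either direction. Their SE ran from 0.155 (Mrc1) to 0.358 (Lyve1), so an uncalled marker is not shown to be unchanged. The upper ends of their 95% intervals ran from 0.25 (Cbr2) to 0.99 (Pf4), and the lower ends from -1.29 (Lyve1) to -0.07 (Mrc1). Over the same libraries 16 of 20 microglia markers rose, among them Cx3cr1, the fractalkine receptor, by 0.64 (SE 0.0797, edgeR quasi-likelihood test, adjusted p = 0.000733). Values are given below in CPM, a count divided by the scaled size of its library, for 1 gene across libraries, and in RPKM, which divides by gene length as well, for levels between genes.

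Among the markers, Ly6c2 has a neighbour that is nearly its copy, so the start of both coding sequences is shown to let the reader see how little separates them. Ly6c1, a Ly6 family gene that brain vessel endothelium makes, lies 59.3 kb from Ly6c2 on chromosome 15. The first 150 coding bases of transcripts Ly6c2-201 and Ly6c1-201 in GENCODE M21 read as follows, with the 6 bases that differ in capitals.
Ly6c2: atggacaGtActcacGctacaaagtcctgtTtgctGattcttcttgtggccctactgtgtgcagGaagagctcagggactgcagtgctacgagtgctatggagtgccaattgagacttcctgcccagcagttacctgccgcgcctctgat
Ly6c1: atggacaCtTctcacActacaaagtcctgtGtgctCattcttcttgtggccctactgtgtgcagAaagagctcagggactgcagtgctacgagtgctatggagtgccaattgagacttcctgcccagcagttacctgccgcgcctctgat
Over the whole coding sequence of 393 bases the transcripts differed at 9 positions, an identity of 97.7%. Of the 723 stretches of 100 bases in Ly6c2-201, 114 (15.8%) also occurred letter for letter in a Ly6c1 transcript, and of the 773 stretches of 50 bases 252 did (32.6%). Counts for Ly6c2 are for this reason uncertain, since the counting could assign such reads to either gene.

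The sequences before the start sites of Plac8, the marker that rose, and of Mrc1, the border marker with the most counts, are shown because both hold the letters GAGGAA, the core bound by PU.1, the master transcription factor of macrophages. They are the 250 bases upstream of the RefSeq start on GRCm38.p6, each on the strand of its gene, with the core on either strand in capitals.
Mrc1, chr2:14229164-14229413, plus strand: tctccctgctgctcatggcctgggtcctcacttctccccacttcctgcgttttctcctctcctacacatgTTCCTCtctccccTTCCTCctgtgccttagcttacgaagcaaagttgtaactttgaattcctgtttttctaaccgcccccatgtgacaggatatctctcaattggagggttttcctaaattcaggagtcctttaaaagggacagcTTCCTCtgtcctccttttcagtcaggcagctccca
Plac8, chr5:100572206-100572455, minus strand: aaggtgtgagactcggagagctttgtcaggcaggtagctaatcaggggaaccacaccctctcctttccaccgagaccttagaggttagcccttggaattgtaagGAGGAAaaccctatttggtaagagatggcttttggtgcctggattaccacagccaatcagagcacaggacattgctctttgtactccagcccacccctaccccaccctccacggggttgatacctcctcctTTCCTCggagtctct
Another Plac8 start in the same table had no such core before it. In windows of 300 bases, which add 50 bases after the start, 8 of the 12 promoters listed for 9 of the markers held the core (those of Mrc1, Pf4, F13a1, Cbr2 and Ly6c2 and 1 of Plac8), and 28.3% of all 32851 promoters of that length did. The Ly6c2 windows overlap and share the same cores, and by gene 6 of the 9 markers held the core. The letters TTGCNNAA, a pattern of C/EBP factors, stood in 3 of the 12 (Pf4, Plac8 and S100a9) and in 10.8% of all. An interferon response element, GAAA followed by any 2 bases and GAAA again, stood in 0 of the 12 and in 3.44% of all. Each motif was searched on both strands, and a match is a description of the letters, not of binding. The motifs were picked with the values already known.

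All 10 markers were rare in these libraries. In the GFP group the highest level per length was that of Pf4, at 0.969 ± 0.191 RPKM (SD, n = 4), followed by Ly6c2, Cbr2, Mrc1, S100a9, Cd163 and F13a1, the last at 0.542 ± 0.0516 RPKM. The range over libraries of each of these 7 overlapped that of its neighbour in the order. Lyve1 at 0.236 ± 0.105 RPKM and Plac8 at 0.235 ± 0.0851 RPKM came below F13a1 with no overlap, and Ccr2 was lowest, at 0.0735 ± 0.0210 RPKM. In the GFP-GR100 group Plac8 stood in the fifth place at 0.753 ± 0.0979 RPKM, between Mrc1 and Cbr2, whose ranges overlapped its own. The order of the other 9 put S100a9 next after Pf4 and left Ccr2 at the bottom, with a range that overlapped that of Lyve1. The plot of RPKM by gene shows the gap between F13a1 and Lyve1 in both groups and the new place of Plac8.

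**Figure D1:**
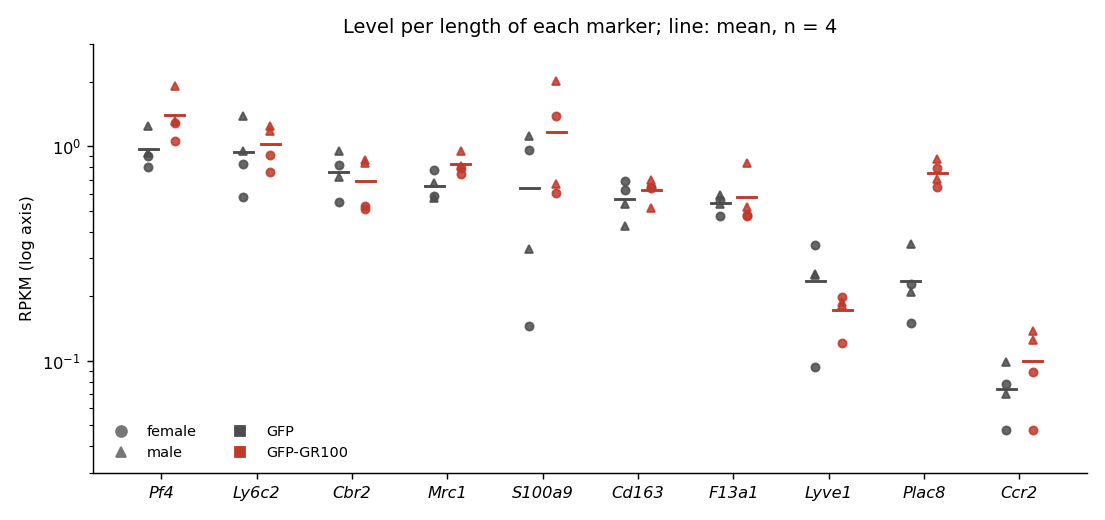
Level per length of the 10 markers in RPKM on a log axis, in each of the 4 GFP (grey) and 4 GFP-GR100 (red) libraries, female mice as circles, male mice as triangles and group means as lines. Genes are ordered by their GFP mean, from Pf4 at 0.969 to Ccr2 at 0.0735 RPKM, and Plac8 is the gene whose red points all lie above its grey ones.

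Mrc1 encodes the mannose receptor CD206, a lectin that takes up glycoproteins, and lies at chr2:14229392-14332057 on mm10. It was counted at 5.36, 3.81, 4.24 and 3.69 CPM in GFP libraries 1 to 4 and at 4.93, 4.51, 5.15 and 5.96 CPM in GFP-GR100 libraries 1 to 4. The highest GFP library exceeded 3 of the 4 GFP-GR100 libraries, so the groups overlapped. The log2 fold change was 0.27 (SE 0.155, 95% interval -0.07 to 0.60, edgeR adjusted p = 0.421), and the interval reaches from a level slightly below that of GFP to 1.52 times it. Cd163, the scavenger receptor for haemoglobin bound to haptoglobin, was at 3.35, 2.86, 2.39 and 1.91 CPM in GFP and at 2.78, 2.79, 2.31 and 3.08 CPM in GFP-GR100. The GFP-GR100 values lay within the range of the GFP values, and the log2 fold change was 0.08 (95% interval -0.29 to 0.45, edgeR adjusted p = 0.837). Without GFP-GR100 replicate 4 it was -0.05.

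Lyve1 encodes a hyaluronan receptor found on a set of border macrophages along vessels and on lymphatic endothelium. GFP libraries held 0.264, 0.919, 0.655 and 0.658 CPM, and GFP-GR100 libraries 0.307, 0.495, 0.491 and 0.468 CPM. GFP replicate 1 had the fewest Lyve1 counts of the 8 libraries, at 16, and 3 of the 4 GFP libraries lay above all GFP-GR100 libraries. Lyve1 had a log2 fold change of -0.52 (95% interval -1.29 to 0.26, edgeR adjusted p = 0.499), which was -0.09 without GFP replicate 2 and -0.76 without GFP replicate 1. The interval runs from 0.409 to 1.198 times the GFP level, so it holds both a fall and a rise.

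Pf4 encodes platelet factor 4, a chemokine that platelets store and that border macrophages also transcribe. GFP libraries were at 0.511, 0.540, 0.722 and 0.546 CPM and GFP-GR100 libraries at 0.734, 0.596, 1.12 and 0.760 CPM. In GFP-GR100, 3 of the 4 libraries lay above the highest GFP library and replicate 2 did not. Pf4 had a log2 fold change of 0.46 (SE 0.247, 95% interval -0.08 to 0.99, edgeR adjusted p = 0.383). Of 8 platelet and megakaryocyte markers, 5 could be tested and 0 passed the edgeR test, with 1 at an unadjusted p under 0.05. That gene was Gp9, a subunit of the platelet receptor for von Willebrand factor, at 0.312 ± 0.0833 CPM in GFP and 0.117 ± 0.0618 CPM in GFP-GR100 (SD, n = 4, edgeR adjusted p = 0.189). Ppbp, the platelet chemokine gene 2.37 kb from Pf4, had 51 counts in all and was not tested. The summed level of the platelet list ran from 168 to 271 CPM in GFP and from 193 to 205 CPM in GFP-GR100, most of it from Gp1bb, which lay at 210 ± 44.1 CPM in GFP. The next highest gene of the list, Itga2b, lay at 1.95 ± 0.364 CPM in GFP. The sum is therefore mainly a reading of Gp1bb, and whether those counts came from platelets was not tested.

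F13a1, the A subunit of coagulation factor XIII, and Cbr2, a carbonyl reductase, completed the border set. F13a1 was at 2.41, 1.89, 2.098 and 2.33 CPM in GFP and at 1.82, 1.78, 2.05 and 3.23 CPM in GFP-GR100. Replicate 4 was the highest of all 8 libraries and the other three GFP-GR100 libraries lay within or below the GFP range. The log2 fold change was 0.002 (95% interval -0.42 to 0.42, edgeR adjusted p = 0.997), and -0.20 without GFP-GR100 replicate 4. Cbr2 was at 0.792, 1.11, 0.944 and 1.27 CPM in GFP and at 0.679, 0.647, 1.150 and 1.10 CPM in GFP-GR100. Both GFP-GR100 females lay below all GFP libraries and both males within their range. Its log2 fold change was -0.24 (95% interval -0.73 to 0.25, edgeR adjusted p = 0.618).

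**Figure D2:**
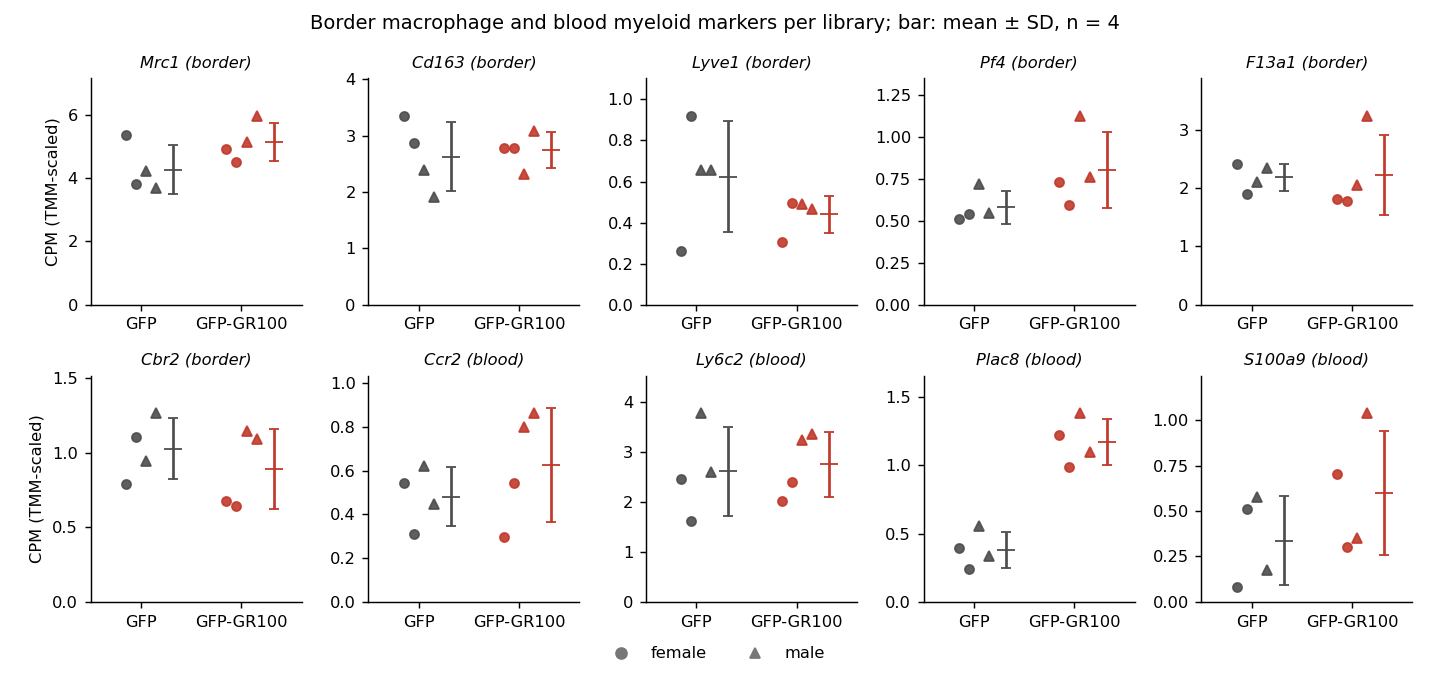
CPM (library totals scaled by TMM) of the 10 markers in each library, GFP in grey and GFP-GR100 in red, female mice as circles, male mice as triangles and the mean ± SD (n = 4) as a bar. The groups overlap in 9 of the panels, and in that of Plac8 all 4 GFP-GR100 libraries (0.989 to 1.38 CPM) lie above all 4 GFP libraries (0.243 to 0.555 CPM).

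Plac8 was at 0.396, 0.243, 0.555 and 0.335 CPM in GFP libraries 1 to 4, from 24, 18, 50 and 27 counts. GFP-GR100 libraries 1 to 4 held 1.23, 0.989, 1.38 and 1.10 CPM, from 112, 78, 107 and 75 counts. The lowest GFP-GR100 library exceeded the highest GFP library. The mean rose from 0.382 ± 0.131 to 1.17 ± 0.170 CPM (SD, n = 4), with a log2 fold change of 1.63 (SE 0.267, 95% interval 1.05 to 2.21, edgeR adjusted p = 0.00460), which is between 2.07 and 4.62 times the GFP level. The log2 fold change was 1.81 (SE 0.387) in females and 1.47 (SE 0.367) in males. The difference between the sexes was not called (edgeR test of the product of sex and group, adjusted p = 0.796). The gene lies at chr5:100553725-100572245 on mm10.

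Against all genes, Plac8 was 1 of 460 called higher, 2.19% of the 20987 tested, while 68 (0.324%) were called lower. Groups that did not overlap were found for 1056 genes with GFP-GR100 higher (5.03%) and for 635 with GFP-GR100 lower (3.03%). Of the border markers 0 of 6 were called at an adjusted p below 0.05, by edgeR, DESeq2 or limma. By edgeR 0 of 6 also had an unadjusted p under 0.05. Of the blood markers 1 of 4 was called. The median log2 fold change was 0.04 over the border markers and 0.56 over the blood markers, beside -0.02 over all tested genes. The product of sex and group was called for 11 genes (0.0524%), none of them a marker of the 10.

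Ccr2 encodes the receptor that brings monocytes to CCL2. GFP libraries held 0.544, 0.311, 0.622 and 0.447 CPM and GFP-GR100 libraries 0.296, 0.545, 0.801 and 0.862 CPM. The GFP-GR100 males were the highest of the 8 libraries and GFP-GR100 replicate 1 the lowest. Ccr2 had a log2 fold change of 0.32 (95% interval -0.36 to 1.01, edgeR adjusted p = 0.634). Ly6c2, the monocyte Ly6C gene, was at 2.46, 1.62, 3.77 and 2.61 CPM in GFP and at 2.03, 2.40, 3.24 and 3.36 CPM in GFP-GR100. All GFP-GR100 values lay within the GFP range, and the log2 fold change was 0.08 (95% interval -0.31 to 0.47, edgeR adjusted p = 0.845). Without GFP replicate 2 it was -0.03.

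Its near-copy Ly6c1, whose first coding bases are printed above, was the more abundant at 15.1, 17.6, 35.3 and 25.4 CPM in GFP and 14.6, 16.2, 20.5 and 21.0 CPM in GFP-GR100. In both groups each male held more of each gene than each female, a difference that was not tested. The ratio of Ly6c1 to Ly6c2 in CPM ran from 6.13 to 10.9 in GFP and from 6.25 to 7.21 in GFP-GR100. The log2 fold change of Ly6c1 was -0.32 (95% interval -0.60 to -0.04, edgeR adjusted p = 0.265). Across the 8 libraries, which share depth and sex between the genes, Pearson's r was 0.689 between Ly6c1 and Ly6c2 and 0.867 between Ccr2 and Ly6c2, given as descriptions. How much of the Ly6c2 count came from reads of Ly6c1 was not tested.

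**Figure D3:**
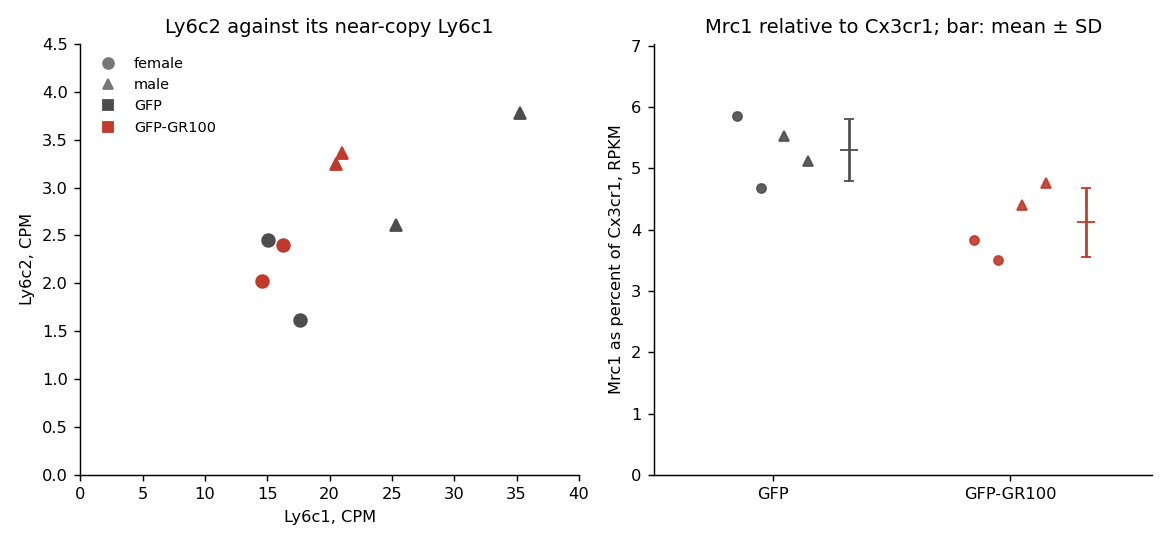
Left, Ly6c2 against Ly6c1 in CPM, 1 point per library. Right, Mrc1 as a percent of Cx3cr1 in RPKM, with a bar for mean ± SD (n = 4). Ly6c2 spans 1.62 to 3.77 CPM and Ly6c1 14.6 to 35.3 CPM, and Mrc1 is 4.68% to 5.86% of Cx3cr1 in GFP and 3.50% to 4.76% in GFP-GR100.

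S100a9 was the most uneven marker within a group. GFP libraries held 0.0825, 0.513, 0.577 and 0.174 CPM, from 5, 38, 52 and 14 counts, a spread of 7.001 times. GFP-GR100 libraries held 0.701, 0.304, 0.349 and 1.04 CPM, and 2 of the 4 exceeded all GFP libraries. The log2 fold change was 0.80 (SE 0.585, 95% interval -0.51 to 2.103, edgeR adjusted p = 0.528), so the interval reaches to 4.30 times the GFP level. Its partner S100a8, 22.6 kb away, was at 0.0989, 0.189, 0.355 and 0.174 CPM in GFP and 0.405, 0.266, 0.323 and 0.497 CPM in GFP-GR100. The pair moved together over the 8 libraries (Pearson's r = 0.901, a description), and S100a8 had a log2 fold change of 0.88 (edgeR adjusted p = 0.300).

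Further markers of the same cells were counted in 3 lists. Of 25 further border macrophage markers, 21 were tested, 1 rose and 0 fell, with a median log2 fold change of 0.23. A log2 fold change above 0 was found for 18 of the 21, and at an unadjusted p under 0.05 there were 8 higher and 0 lower, beside 8.23% higher and 7.37% lower over all tested genes. The gene that rose was Siglec1, the sialic acid receptor sialoadhesin, which also responds to interferon, from 1.03 ± 0.313 to 2.17 ± 0.216 CPM (SD, n = 4, log2 fold change 1.10, edgeR adjusted p = 0.0141). Its adjusted p was 0.0545 without GFP replicate 4 and 0.0583 without GFP-GR100 replicate 3. The summed level of the list was 71.7 to 79.0 CPM in GFP and 81.1 to 97.5 CPM in GFP-GR100. Of 16 further monocyte markers, 12 were tested and 1 rose. That was Ms4a4c, a membrane protein of the MS4A family, from 0.169 ± 0.0770 to 0.880 ± 0.295 CPM (log2 fold change 2.34, edgeR adjusted p = 0.00586). The summed level of that list overlapped, at 137 to 242 CPM in GFP and 154 to 241 CPM in GFP-GR100. Its largest part was Nr4a1, at 119 ± 45.9 CPM in GFP and 105 ± 43.3 CPM in GFP-GR100. Whether those counts came from monocytes was not tested. The list's median log2 fold change was 0.07, with 8 of 12 above 0. At an unadjusted p under 0.05 there were 4 higher and 1 lower.

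Of 14 further neutrophil markers, 8 were tested and 1 rose. That was Csf3r, the receptor for granulocyte colony-stimulating factor, which microglia transcribe too, from 6.48 ± 1.33 to 16.1 ± 3.03 CPM (SD, n = 4, log2 fold change 1.30, edgeR adjusted p = 0.000124). The summed level was 8.21 to 11.4 CPM in GFP and 15.6 to 23.7 CPM in GFP-GR100, with Csf3r as the largest part. The median log2 fold change over the 8 tested was 0.56, all 8 lay above 0, and at an unadjusted p under 0.05 there were 2 higher and 0 lower. Over the 8 libraries together the counts of the list ran from 2 for Elane, a granule protease, to 7014 for Csf3r. The 6 genes not tested (Elane, Mmp8, Retnlg, Cd177, Camp and Ltf) had 2 to 72 counts each, and the 7 tested besides Csf3r had from 98 (Mpo) to 708 (Mmp9).

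Signals and receptors that act on these cells were counted in a list of 15 ligands, receptors and partners, of which 14 were tested, 3 rose and 0 fell, with a median log2 fold change of 0.46 and, at an unadjusted p under 0.05, 7 higher and 1 lower. Csf1, the growth factor of macrophages, rose from 18.5 ± 0.987 to 29.1 ± 2.16 CPM (log2 fold change 0.65, edgeR adjusted p = 0.00114). Its receptor Csf1r, shared by microglia and all macrophages, rose from 103 ± 11.5 to 148 ± 9.69 CPM (log2 fold change 0.52, edgeR adjusted p = 0.00957). Ccl12, a mouse chemokine for CCR2, rose from 0.712 ± 0.499 to 4.07 ± 0.666 CPM (log2 fold change 2.53, edgeR adjusted p = 0.0119), with an adjusted p of 0.0576 without GFP-GR100 replicate 3. Ccl2, the main ligand of CCR2, was at 0.220 ± 0.218 CPM in GFP and 0.572 ± 0.152 CPM in GFP-GR100 and was not called (edgeR adjusted p = 0.241). The gene lower at an unadjusted p was Il34, another ligand of the list. Il34 was at 62.7 ± 7.07 CPM in GFP and 51.1 ± 4.21 CPM in GFP-GR100 and was not called (edgeR adjusted p = 0.176). Ccl2 and Il34 are named after their values were seen.

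Of 17 paralogues and neighbours of the 10 markers, 13 were tested, 2 rose and 0 fell, with a median log2 fold change of 0.08 and, at an unadjusted p under 0.05, 5 higher and 1 lower. Ly6i, a Ly6 gene on the same chromosome as Ly6c2, was at 0.0311 ± 0.0275 CPM in GFP, which is at or under the level of 3 counts, and at 0.293 ± 0.0620 CPM in GFP-GR100 (edgeR adjusted p = 0.0127). Ccrl2, a chemokine-binding receptor, rose from 0.738 ± 0.105 to 1.46 ± 0.221 CPM (log2 fold change 0.99, edgeR adjusted p = 0.0245). Leaving out 1 library at a time ended the call of Ly6i in 3 cases (GFP replicate 4 and GFP-GR100 replicates 2 and 3), with an adjusted p up to 0.0628. It ended that of Ccrl2 in 5 cases (GFP replicates 3 and 4 and GFP-GR100 replicates 2, 3 and 4), with an adjusted p up to 0.0897.

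**Figure D4:**
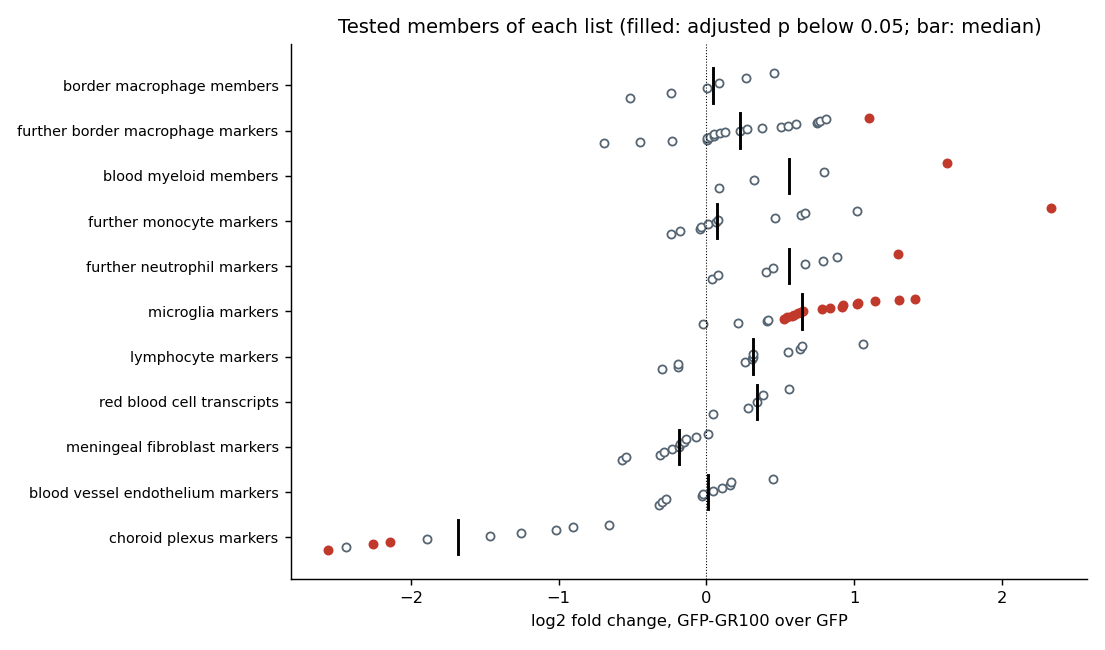
Log2 fold change, GFP-GR100 over GFP, of each tested gene in 11 marker lists. Filled red points have an edgeR adjusted p below 0.05 and bars are list medians. The microglia list has 16 of 20 filled points, the border macrophage markers 0 of 6 and the blood markers 1 of 4 (Plac8), and all 10 choroid plexus genes lie below 0.

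The microglia list showed how the border markers stood beside the other macrophages of the brain. Its 4 leading genes were Trem2, a lipid receptor, from 14.5 ± 2.69 to 38.7 ± 3.96 CPM, Laptm5, a lysosomal protein, from 31.9 ± 4.46 to 60.7 ± 3.70 CPM, Cx3cr1 from 47.2 ± 4.91 to 73.4 ± 3.25 CPM and C1qa, a complement subunit, from 47.8 ± 16.9 to 103 ± 8.99 CPM. Their highest edgeR adjusted p was 0.00140. Not called in this list were Olfml3 (log2 fold change 0.415), Tmem119 (0.41), P2ry12 (0.21) and Fcrls (-0.02), while the border marker Mrc1 lay at 0.27. The list also holds Csf1r, which all macrophages share. The list's median log2 fold change was 0.65, and its summed level was 565 to 795 CPM in GFP and 976 to 1097 CPM in GFP-GR100. In bulk tissue, changed cell numbers and changed RNA per cell cannot be told apart, for a border marker or a microglial one.

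**Figure D5:**
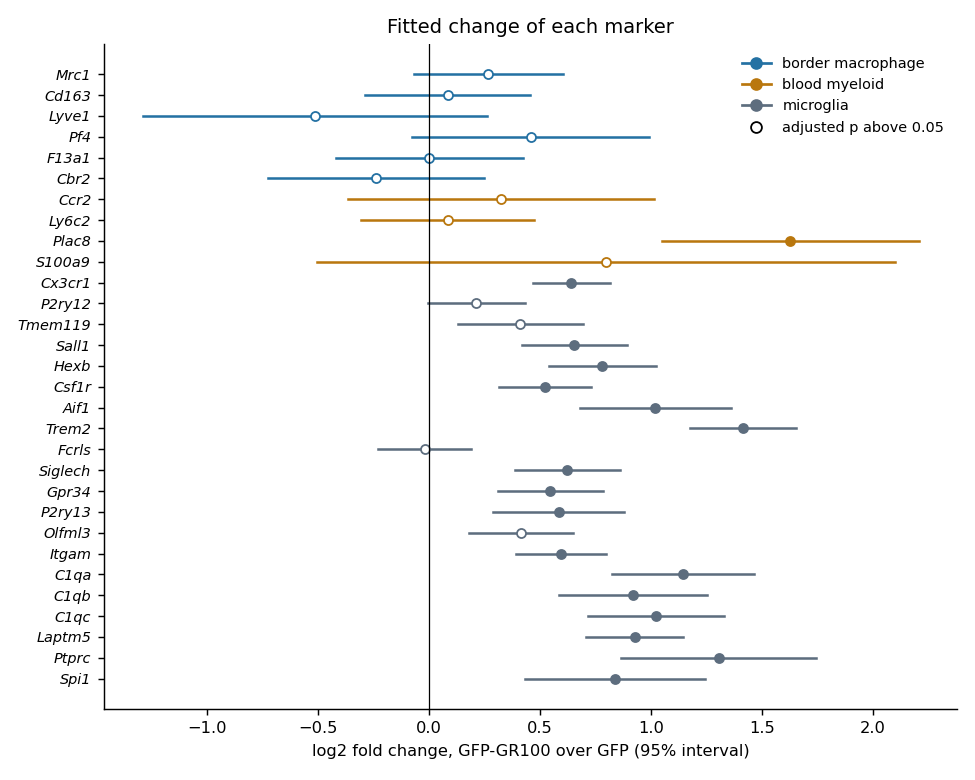
Fitted log2 fold change, GFP-GR100 over GFP, with its 95% interval for the 6 border markers (blue), the 4 blood markers (orange) and 20 microglia markers (grey). Open points have an edgeR adjusted p above 0.05. All border intervals cross 0, Plac8 lies at 1.63, and Cx3cr1 at 0.64 with an interval of 0.47 to 0.81.

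Each marker was also expressed relative to Cx3cr1 within a library, a description chosen after the values were known. Because Cx3cr1 itself rose by 0.64 on the log2 scale, that rise enters every ratio with the opposite sign, and no test of the ratios is given. Mrc1 was 5.86%, 4.68%, 5.53% and 5.13% of Cx3cr1 in RPKM in GFP and 3.83%, 3.50%, 4.40% and 4.76% in GFP-GR100. Of the GFP-GR100 libraries, 3 lay below all GFP libraries, and replicate 4 was just above the lowest of them. The mean log2 ratio to Cx3cr1 differed between the groups by -0.37 for Mrc1, -0.56 for Cd163, -1.04 for Lyve1, -0.20 for Pf4, -0.66 for F13a1 and -0.87 for Cbr2. Among the blood markers it differed by -0.33 for Ccr2, -0.53 for Ly6c2, 1.03 for Plac8 and 0.40 for S100a9.

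Cells and tissue that could carry these RNAs into the sample were measured by their own lists. Red blood cell transcripts summed to 90.3 to 239 CPM in GFP and 94.8 to 362 CPM in GFP-GR100, 0 of 5 passed the edgeR test, and 0 of 5 had an unadjusted p under 0.05. The smallest p was that of Alas2, an enzyme of haem synthesis, at 3.86 ± 1.66 CPM in GFP and 5.40 ± 2.03 CPM in GFP-GR100, called with no filter alone. Of 15 lymphocyte markers, 11 were tested and 0 were called by edgeR, 3 having an unadjusted p under 0.05. The smallest p was that of Cd4, a coreceptor of T cells that macrophages and microglia also make, at 13.6 ± 0.524 CPM in GFP and 16.8 ± 2.06 CPM in GFP-GR100, called only without GFP replicate 3 and GFP-GR100 replicate 4. The lymphocyte sum was 15.3 to 20.1 CPM in GFP and 19.8 to 24.4 CPM in GFP-GR100. Of 7 dendritic cell markers 1 rose, Itgax, the integrin CD11c, from 0.620 ± 0.471 to 6.18 ± 0.740 CPM (edgeR adjusted p = 0.0249), and it lost that call when GFP replicate 1 or any 1 of the GFP-GR100 libraries was left out, with an adjusted p up to 0.101. Over the 7 dendritic cell markers the median log2 fold change was -0.04, with 2 above 0 and 5 below. Which cells the Itgax counts came from was not tested. The part of red blood cells, lymphocytes and dendritic cells in the Plac8 result was not tested.

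Border macrophages live in meninges and choroid plexus, and the amount of either in a dissection can differ. Of 10 choroid plexus markers 3 fell and 0 rose: Folr1, a folate receptor, from 2.12 ± 0.975 to 0.439 ± 0.158 CPM, Calml4, a calmodulin-like protein, from 1.14 ± 0.479 to 0.255 ± 0.102 CPM, and Cldn2, a claudin of the epithelial barrier, from 1.96 ± 0.953 to 0.336 ± 0.135 CPM. The edgeR adjusted p of these 3 was 0.00600, 0.00757 and 0.0114, and that of Cldn2 rose to at most 0.0663 when 1 GFP-GR100 library (replicate 2, 3 or 4) was left out, and was 0.0740 on the log2(RPKM + 1) scale. At an unadjusted p under 0.05 by edgeR, 0 of the 10 were higher and 9 lower. The list's median log2 fold change was -1.68, and its sum ran from 130 to 371 CPM in GFP and from 33.3 to 90.0 CPM in GFP-GR100. The largest part of the sum was Ttr, at 215 ± 99.2 CPM in GFP and 40.3 ± 23.7 CPM in GFP-GR100. Ttr was not called (edgeR adjusted p = 0.145). Of 11 meningeal fibroblast markers 0 were called by edgeR and 3 were lower at an unadjusted p under 0.05, with sums of 134 to 165 CPM and 127 to 151 CPM. The smallest p was that of Slc6a13, a transporter of leptomeningeal cells, at 6.999 ± 0.903 CPM in GFP and 4.75 ± 1.09 CPM in GFP-GR100 (edgeR adjusted p = 0.0733). It was called with DESeq2, with no filter, without GFP-GR100 replicate 4 and without that library and GFP replicate 3. Of 10 blood vessel endothelium markers, which include Ly6c1, 0 passed, with a median of 0.01, and 3 had an unadjusted p under 0.05, the smallest that of Kdr, a receptor for vascular growth factors, which was called with no filter, with DESeq2 and with the ribosomal share as a covariate. Of 5 lymphatic endothelium markers 3 were tested and 0 passed, also at an unadjusted p, the smallest p being that of Prox1, which dentate granule neurons make as well. The part of choroid plexus and meninges in the border markers' values was not tested.

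Each library held between 65880460 and 89113010 counts, and 3 counts stand for 0.0329 to 0.0495 CPM. The share of counts at 3 genes that overlap or resemble ribosomal RNA (Yam1, AY036118 and Lars2) was 6.74% or more in 4 libraries, the females given GFP (11.4% and 6.74%) and the males given GFP-GR100 (8.77% and 9.83%), and 2.76% to 3.80% in the others. This split coincides with the product of sex and group, so the 2 cannot be told apart there. The set of higher share compares GFP females with GFP-GR100 males, and the set of lower share GFP males with GFP-GR100 females. Ratios within a set therefore mix group with sex, and sex and share cannot be told apart in them. Within the 4 libraries of higher share Plac8 was 3.88 times as high in GFP-GR100 as in GFP, and within the 4 of lower share 2.49 times, with no overlap in either. With this share as a covariate its log2 fold change was 1.63 (edgeR adjusted p = 0.00504). For 5 markers the 2 sets lay on opposite sides of 1: in the higher and the lower set GFP-GR100 over GFP was 1.95 and 0.787 for Ccr2, 1.62 and 0.693 for Ly6c2, 1.23 and 0.811 for F13a1, 1.18 and 0.600 for Cbr2, and 0.869 and 1.30 for Cd163. The other 4 kept their side, Mrc1, Pf4 and S100a9 above 1 and Lyve1 below. The dissected tissue weighed 111.4 to 126.6 mg in GFP and 71.9 to 85.1 mg in GFP-GR100, so tissue weight and group cannot be told apart. Slc17a7, the vesicular glutamate transporter of excitatory neurons, was at 1121 ± 103 CPM in GFP and 1050 ± 216 CPM in GFP-GR100 and is a gene that cortex and hippocampus express strongly.

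The genes most like the markers across libraries were sought among 16457 others with a mean of at least 1 CPM, by the correlation of their deviations from the group means over 8 libraries. For the mean of the border markers they were RP23-349N4.5 (r = 0.987), Fra10ac1 (0.987), RP24-98O21.4 (0.970), Pdgfd (0.967) and Zfp677 (0.966). For the mean of the blood markers they were Mog (0.993), Lsm6 (0.993), 2300009A05Rik (0.989), Dnajb3 (0.988) and Nit2 (0.986). The mean deviation of the border markers was lowest in the GFP-GR100 females (-0.20 and -0.17) and highest in the GFP-GR100 males (0.14 and 0.23). Within the border set the pairs were unlike: r over the 8 libraries was 0.606 for Mrc1 with Cd163 and -0.72 for Mrc1 with Lyve1. These are descriptions over libraries that share depth and the split of ribosomal share.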

How the data were processed

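Total RNA from cortex and hippocampus was made into stranded paired-end libraries, per the labels' protocols. The deposited table gives whole-number counts per gene, made by the authors with TopHat2 2.1.0 on mm10, and RPKM, per the submitters' processing notes and the file headers; CASAVA, DESeq2 and R 3.4.1 are named there too. The deposited RPKM divide by the summed gene counts (ratio 1.000227 to 1.000244) and by the listed gene length. The sources used here do not state counter, annotation or use of strand. The authors' counts were analysed with edgeR 4.0.16, limma 3.58.1 and DESeq2 1.42.0 in R 4.3.3: TMM scaling, a minimum count of 10 and total of 15, leaving 20987 genes, quasi-likelihood tests with sex and group, Benjamini-Hochberg adjustment over all tested genes, threshold 0.05. Intervals use t quantiles at the fitted degrees of freedom. The scripts were tested on simulated data. Gene totals ran from 65880460 to 89113010; intervals cover the 8 libraries only.

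Replicates were numbered in accession order and pair no animals; no 2 libraries of a group agreed within sampling noise (lowest chi-square per degree of freedom 15.6). Named genes were the 10 markers, Ly6c1, S100a8, up to 4 called genes of each other list by smallest adjusted p (or the smallest p where none was called), and the 5 most alike by correlation. Others are stated as such, and Gp1bb, Itga2b, Ppbp, Nr4a1, Ttr, Olfml3, Tmem119, P2ry12, Fcrls and Slc17a7 were named after their values were seen. The markers and all 16 lists (179 genes) were chosen with earlier results of these data known. Alternatives covered scaling, filters, DESeq2, limma on counts and on log2(RPKM + 0.1) or log2(RPKM + 1), the sex term, the ribosomal share and leaving out libraries. Of the 10 markers 9 matched the RefSeq promoter table of GRCm38.p6; proteins were not used here.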

Additional observations from a re-analysis of the deposited data

Results flagged for a closer look

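Lyve1 in GFP-GR100 replicate 1 stood at 0.3066 CPM, away from the other 3 libraries of its group, which lay between 0.4676 and 0.4946 CPM (gap over range 0.857). Pf4 in GFP replicate 3 stood at 0.7215 CPM, away from the other 3 at 0.5112 to 0.5459 CPM (gap over range 0.835). About 1 in 20 groups is picked out this way by chance, and 20 groups (10 markers in each of 2 study groups) were looked at.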

How the results depend on the processing

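Plac8 was called in all 17 alternatives in which it was tested, with a log2 fold change of 0.51 on the log2(RPKM + 1) scale, which shrinks rare genes, up to 1.92. Under the filter of a mean of at least 1 CPM it was not tested, so 0 blood markers were called there. Lyve1, Pf4 and Cbr2, and Ccr2 and S100a9 among the blood markers, were not tested there either. No border marker was called under any alternative in which it was tested. Genes called higher numbered 460, and 1168 with no filter, 724 with DESeq2 and 304 to 514 leaving out 1 library. Genes called lower numbered 68, and 361 with no filter, 36 with a mean of at least 1 CPM, 200 with DESeq2, 32 on log2(RPKM + 0.1), 30 on log2(RPKM + 1), 35 with no sex term, 115 without GFP 3 and GFP-GR100 4, 226 with the ribosomal share as a covariate and 19 to 77 leaving out 1 library. The product of sex and group was called for 11 genes, and 1353 with no filter, 567 with DESeq2, 7 with limma-voom, 7 on log2(RPKM + 1), 162 without GFP 3 and GFP-GR100 4, 0 with the ribosomal share as a covariate and 1 to 828 leaving out 1 library. The causes were not tested. Uncalled changes near 0 turned sign: leaving out 1 library, F13a1 ranged from -0.1964 to 0.12, Ly6c2 from -0.0315 (GFP replicate 2 out) to 0.24 and Cd163 from -0.0526 (GFP-GR100 replicate 4 out) to 0.18. F13a1 was -0.0195 when GFP replicate 2 was left out, -0.0578 for GFP replicate 3 and -0.2006 for the pair GFP 3 and GFP-GR100 4. The other markers kept their sign, with ranges on leaving out 1 library of 0.18 to 0.42 for Mrc1, -0.76 to -0.09 for Lyve1, 0.31 to 0.55 for Pf4, -0.35 to -0.08 for Cbr2, 0.19 to 0.56 for Ccr2, 0.39 to 1.35 for S100a9 and 1.47 to 1.86 for Plac8. Depth limits rows near 3 counts (0.0329 to 0.0495 CPM), such as Ly6i in GFP.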
